A study of Mus musculus with 6 samples.

Results

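In all, 10 genes of innate immune sensing were followed in hippocampal RNA from mice. They were the 6 Toll-like receptors *Tlr1*, *Tlr2*, *Tlr3*, *Tlr4*, *Tlr7* and *Tlr9*, the co-receptor *Cd14*, the trafficking protein gene *Unc93b1*, the adaptor *Myd88* and the kinase *Irak4*. They were picked by symbol, with earlier results of these data known. Each symbol was matched to its Ensembl gene, which gave 10 of the 52550 genes in the count table. The splicing table listed 11 of its 40961 events in 4 of these genes. The libraries came from the hippocampus of male C57BL/6 J mice, injected with adeno-associated virus in both CA1 areas when 8 weeks old. The 3 control libraries came from mice given control shRNA, although the sample labels call them wild type, and the 3 others came from mice given shRNAs against L-DL, the long isoform of hnRNP DL. Mice of both groups thus carried virus, and the control virus had the higher titre according to the methods. The L-DL shRNAs were driven by H1 promoters on a vector that also carried a zsGreen reporter under the CamkIIα promoter. Behaviour was tested 4 weeks after injection, and the time of RNA sampling is not given in the sources used here. Each library is taken as 1 mouse, and p-values measure the spread between these libraries.

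Toll-like receptors are membrane proteins that bind molecules typical of microbes, such as lipoproteins, lipopolysaccharide or nucleic acids. One set works at the cell surface and another in endosomes, and most of them signal through the adaptor MyD88 and kinases of the IRAK family to NF-κB and interferon regulatory factors. In the brain, microglia are the main cells known to carry these receptors.

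Reads counted on genes numbered between 16052529 and 17913064 per library. *Hnrnpdl*, the targeted gene, had 2862, 3120 and 2689 counts in the controls and 3939, 2680 and 2904 in those labelled L-DL KD. This gave a log2 fold change of 0.03 (SE 0.12, adjusted p = 0.898, edgeR). No fall was detectable in this count, which sums all isoforms and so does not check the long one. The paper measured L-DL protein in the hippocampus by immunoblotting and describes the knockdown mice as having reduced L-DL. The counts hold no protein, and the group is therefore called by its label, as the KD-labelled libraries. Neuronal markers were present, with 10 of 11 called lower and *Nefl*, a neurofilament gene, called higher (log2 fold change 0.88, adjusted p = 0.000289, edgeR), and a summed level of 5658 to 6593 CPM (counts scaled to the size of the library) against 9462 to 10038 CPM in the controls.

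Of these 10 genes, 9 had higher counts in the KD-labelled libraries, and none had lower counts. The 9 were *Tlr1*, *Tlr2*, *Tlr4*, *Cd14*, *Tlr7*, *Tlr9*, *Unc93b1*, *Myd88* and *Irak4*, with fitted folds from 1.70 for *Irak4* to 3.53 for *Cd14*. *Tlr3*, the receptor for double-stranded RNA, had a fitted fold of 1.005. Calls were made with edgeR's quasi-likelihood test at a Benjamini-Hochberg adjusted p under 0.05 over all 17621 genes tested. Across these genes 15.6% were called higher and 15% lower, and the median log2 fold change was 0.01. The total of 5379 calls was 3524, 3541 and 3498 without control replicate 1, 2 and 3. The median over the 10 genes was 1.15. The 3 KD-labelled libraries lay above all 3 controls in the same 9 genes, against 23.8% of all genes tested. All 10 passed the filter on low counts, and their counts ran from 72 to 3229 per library.

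**Figure D1:**
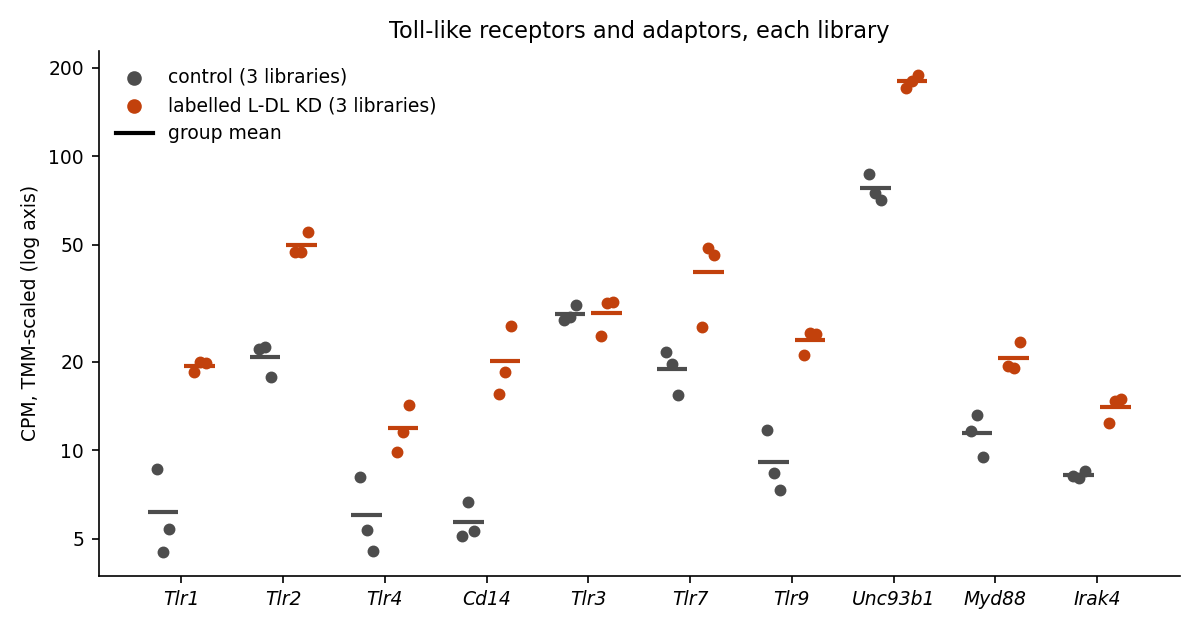
Level of each gene in each library, in CPM scaled by TMM, on a log axis. Points are the 3 control libraries (grey) and the 3 KD-labelled libraries (orange), and bars are group means. The groups are apart in every gene but *Tlr3*, where the orange points run from 24.4 to 32.0 and the grey ones from 27.8 to 31.3.

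Short stretches of promoter sequence are shown for *Tlr1*, *Tlr2* and *Myd88*, picked with their counts and matches known. Each of these 3 genes holds a match to a motif of a factor known in myeloid or innate immune gene control. Matches in *Tlr9*, also called higher, and in *Tlr3*, not called, are not printed. Promoters from RefSeq (GRCm38.p6, 250 bases before the start site to 50 after it) were given for 6 of the 10 genes, with 2 for *Tlr1*, which made 7 promoters. On both strands, 3 motifs were searched, namely GAGGAAGT for PU.1, AAANNGAAA as the core of the interferon-stimulated response element (ISRE) and GGGANTTCC for NF-κB. The stretches are written 5′ to 3′ on the minus strand, which is the coding strand of these genes, with the matches in capitals.
Tlr1, PU.1 match, chr5:64933559-64933606: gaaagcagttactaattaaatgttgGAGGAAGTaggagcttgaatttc
Tlr2, ISRE core and NF-κB matches, chr3:83841743-83841824: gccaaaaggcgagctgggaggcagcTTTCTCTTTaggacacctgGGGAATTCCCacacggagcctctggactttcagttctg
Myd88, ISRE core match, chr9:119340021-119340082: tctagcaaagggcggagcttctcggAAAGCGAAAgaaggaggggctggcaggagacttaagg
The NF-κB motif matched *Tlr2* on both strands in overlapping positions, and the ISRE core matched it on the opposite strand. A PU.1 match also stood after the start site of *Tlr9*, and an ISRE core match in the promoter of *Tlr3*, the gene that did not pass the test. None of the 3 motifs was found in the *Irak4* promoter. Of all 32851 promoters, 3.2% held the PU.1 motif, 10.6% the ISRE core and 1.68% the NF-κB motif. The shares are no test of these genes, since the motifs were chosen, and the ISRE core shortened, after matches had been seen. These are matches of letters only, and binding was not measured.

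All 3 surface receptors rose, and *Tlr1* had the largest fitted fold among them. *Tlr1* (ENSMUSG00000044827, GRCm38 chr5:64924679-64933563) encodes the partner with which TLR2 binds triacylated lipoproteins. Its level was 8.62, 4.52 and 5.39 CPM in the controls and 18.4, 19.99 and 19.9 CPM in the KD-labelled libraries. The lowest of the latter was more than the highest control, and the spread was narrower in the KD-labelled libraries (19.4 ± 0.87 CPM, SD, n = 3) than in the controls (6.18 ± 2.16 CPM, SD, n = 3). The log2 fold change was 1.65 (SE 0.23, adjusted p = 0.00147, edgeR), a fold of 3.15 with a 95% interval of 2.19 to 4.52.

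*Tlr2* (ENSMUSG00000027995, chr3:83836272-83841767), the shared subunit of the lipoprotein receptors, stood at 22.1, 22.4 and 17.8 CPM in the controls and at 47.4, 47.4 and 55.3 CPM in the KD-labelled libraries. The groups lay far apart, and its fold was 2.41 (95% interval 1.99 to 2.91, log2 fold change 1.27, SE 0.12, adjusted p = 0.000324, edgeR). *Tlr4* (ENSMUSG00000039005, chr4:66827584-66930284), the receptor of lipopolysaccharide, stood at 8.12, 5.34 and 4.57 CPM in the controls and at 9.90, 11.5 and 14.3 CPM in the KD-labelled libraries. Its groups came closest of the 3 surface receptors, and its fold was 1.98 (95% interval 1.34 to 2.91, log2 fold change 0.98, SE 0.24, adjusted p = 0.0176, edgeR). Without control replicate 2 the log2 fold change of *Tlr4* was 0.90 and its adjusted p 0.0682, and without control replicate 3 they were 0.82 and 0.0644 (edgeR), so that the call was lost while the direction held.

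*Cd14* had the largest fitted fold of the 10 genes with all libraries in the fit. *Cd14* (ENSMUSG00000051439, chr18:36725067-36726798) encodes a surface protein that hands lipopolysaccharide to TLR4 and its partner MD-2. Its level was 5.11, 6.69 and 5.33 CPM in the controls and 15.6, 18.4 and 26.6 CPM in the KD-labelled libraries. Replicate 3 of the KD-labelled libraries was the highest, and even the lowest of them stood well above each control. The log2 fold change was 1.82 (SE 0.22, adjusted p = 0.000972, edgeR), with a 95% interval of the fold from 2.47 to 5.05. This interval overlapped that of *Tlr1* (2.19 to 4.52), and the rank depended on single libraries. Without control replicate 1 the log2 fold change was 1.74 for *Cd14* and 1.97 for *Tlr1*. Without L-DL KD replicate 3 it was 1.57 for *Cd14* and 1.64 for *Tlr1*.

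Of the 3 endosomal receptors, *Tlr9* and *Tlr7* rose and *Tlr3* was not called. *Tlr9* (ENSMUSG00000045322, chr9:106222598-106226883), which binds unmethylated CpG DNA, stood at 11.7, 8.39 and 7.35 CPM in the controls and at 21.1, 25.1 and 24.8 CPM in the KD-labelled libraries. The groups were apart, with a fold of 2.59 (95% interval 1.93 to 3.47, log2 fold change 1.37, SE 0.18, adjusted p = 0.00134, edgeR). *Tlr7* (ENSMUSG00000044583, chrX:167304929-167330558), the receptor of single-stranded RNA, stood at 21.6, 19.7 and 15.4 CPM in the controls and at 26.2, 48.9 and 46.1 CPM in the KD-labelled libraries. Replicate 1 of the latter lay nearer to the controls than to its own group, and the fold was 2.14 (95% interval 1.46 to 3.12, log2 fold change 1.095, SE 0.24, adjusted p = 0.0104, edgeR).

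*Tlr3* (ENSMUSG00000031639, chr8:45395665-45411080) stood at 27.8, 28.5 and 31.3 CPM in the controls and at 24.4, 31.6 and 32.0 CPM in the KD-labelled libraries. The groups overlapped, and the means were 29.2 ± 1.83 and 29.3 ± 4.26 CPM (SD, n = 3 each). Its log2 fold change was 0.01 (SE 0.12, adjusted p = 0.972, edgeR), and the 95% interval of the fold, 0.82 to 1.23, held none of the folds fitted for the other 9 genes.

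*Unc93b1*, the most abundant of the 10 genes, had the smallest adjusted p. *Unc93b1* (ENSMUSG00000036908, chr19:3935186-3949340) encodes the protein that escorts nucleic acid-sensing receptors from the endoplasmic reticulum to endosomes. Its level was 87.5, 74.9 and 71.3 CPM in the controls and 171, 181 and 190 CPM in the KD-labelled libraries. The fold was 2.32 (95% interval 2.00 to 2.68, log2 fold change 1.21, SE 0.09, adjusted p = 0.000178, edgeR). *Unc93b1* and its clients *Tlr7* and *Tlr9* thus rose with overlapping intervals of the fold, and the client *Tlr3* was not called.

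The 2 signalling genes downstream of the receptors had the smallest fitted folds of the 9 called genes. Their 95% intervals overlapped those of *Tlr4* and *Tlr7*, and differences between the genes were not tested. Without control replicate 2 the log2 fold change of *Tlr4* (0.90) was below that of *Myd88* (0.96). *Myd88* (ENSMUSG00000032508, chr9:119335934-119341411) stood at 11.6, 13.2 and 9.51 CPM in the controls and at 19.4, 19.0 and 23.3 CPM in the KD-labelled libraries, a fold of 1.79 (95% interval 1.40 to 2.30, log2 fold change 0.84, SE 0.16, adjusted p = 0.00548, edgeR). *Irak4* (ENSMUSG00000059883, chr15:94543643-94581815), the first kinase recruited to MyD88, stood at 8.19, 8.04 and 8.50 CPM in the controls and at 12.4, 14.7 and 14.9 CPM in the KD-labelled libraries. Its control libraries were the closest to each other of any of the 10 genes, at 8.24 ± 0.23 CPM (SD, n = 3). The fold of *Irak4* was 1.70 (95% interval 1.38 to 2.101, log2 fold change 0.77, SE 0.13, adjusted p = 0.00402, edgeR). Exons of *Irak4* share 395 bases with *Twf1* and those of *Myd88* share 290 bases with *Acaa1a*, each on the opposite strand, and whether counting used strand is not given. *Twf1* had 847 to 945 counts in the controls and 1150 to 1301 in the KD-labelled libraries, and *Acaa1a* had 1243 to 1356 and 1061 to 1287 counts. Reads shared by *Tlr1* with its near relative *Tlr6* could not be followed, since the treatment of reads that map to several places is not given.

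Levels were compared between genes as CPM per kilobase of annotated exon. In the controls, *Unc93b1* led at 25.7 ± 2.80 CPM per kilobase (SD, n = 3). *Tlr2* (6.89 ± 0.87) and *Tlr3* (5.60 ± 0.35) came next on this scale, with overlapping ranges. Below them *Tlr7*, *Myd88*, *Cd14*, *Tlr9*, *Tlr1* and *Irak4* formed a chain from 4.63 to 1.64 CPM per kilobase in which each neighbour's range overlapped the next, and *Tlr4* was lowest at 1.08 ± 0.34. In the KD-labelled libraries, *Unc93b1* (59.5 ± 3.16) and *Tlr2* (16.6 ± 1.52) still led, each clear of the next gene. *Cd14* moved from place 6 to place 3 at 11.7 ± 3.31 CPM per kilobase, overlapping *Tlr7* (9.90 ± 3.03), while *Tlr3* moved from place 3 to place 8 at 5.63 ± 0.82, overlapping *Tlr1* (5.81 ± 0.26). *Irak4* (2.79 ± 0.28) and *Tlr4* (2.14 ± 0.40) remained lowest, with overlapping ranges.

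Beyond the 10 genes, 61 other genes of the pathway were listed, of which 58 were tested. Of these, 18 were higher, 1 was lower and 39 were not called, with a median log2 fold change of 0.21. Among the other Toll-like receptors, *Tlr6*, a second partner of TLR2, rose by 1.09 on the log2 scale (SE 0.28, adjusted p = 0.0194, edgeR). *Tlr13*, which senses bacterial ribosomal RNA, rose by 0.87 (SE 0.20, adjusted p = 0.0128, edgeR). *Tlr5*, the flagellin receptor, had 1 to 10 counts in the controls and 12 to 17 in the KD-labelled libraries, with a log2 fold change of 1.33 that was not called (adjusted p = 0.146, edgeR). The log2 fold change of *Tlr8* was 1.34 (adjusted p = 0.133, edgeR) and that of *Tlr12* was 0.35 (adjusted p = 0.23, edgeR), neither of which was called. *Tlr11*, with 4 to 17 counts, did not pass the filter on low counts.

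Genes that act beside the receptors came next. Of 5 co-receptor and ligand transfer genes 3 rose, and on the log2 scale *Cd180*, a receptor-like protein, rose by 1.64. *Ly96*, which encodes the TLR4 partner MD-2, rose by 1.23, and *Ly86*, the partner of CD180, by 1.22. Of 5 folding and trafficking genes 2 rose, namely *Lgmn*, an endosomal protease (1.04), and *Slc15a4*, an endosomal transporter (0.47). None of the 3 other adaptors was called, with adjusted p of 0.0912 for *Tirap*, 0.0899 for *Ticam2* and 0.285 for *Ticam1* (edgeR), although *Tirap* and *Ticam2* had an unadjusted p under 0.05, and DESeq2 called none. Of 14 kinases and ubiquitin ligases only *Ikbke* was called higher (0.69) and only *Traf3* lower, with a log2 fold change of -0.58 (SE 0.10, adjusted p = 0.00402, edgeR).

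At the end of the pathway, 7 of 8 transcription factors rose. The largest log2 fold changes were those of *Irf7* (1.09), *Irf5* (0.83) and *Relb* (0.77), and *Irf3* was not called at -0.09. None of the 10 inhibitors was called by edgeR or DESeq2, and 1 of them, *Sarm1*, had an unadjusted p under 0.05. Of 10 cytokine and chemokine genes that the pathway is known to induce, 8 were tested and 3 were called, all higher. *Il1b* had 7 to 28 counts in the controls and 50 to 109 in the KD-labelled libraries, with a log2 fold change of 2.18 (SE 0.58, adjusted p = 0.0244, edgeR). The chemokines *Ccl4* and *Ccl3* had log2 fold changes of 1.79 and 1.24. Of the tested rest, *Tnf*, *Il12b*, *Ccl2*, *Ccl5* and *Cxcl10* were not called, and *Il6* and *Ifnb1* were too low to test. Differences between these roles were not tested.

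**Figure D2:**
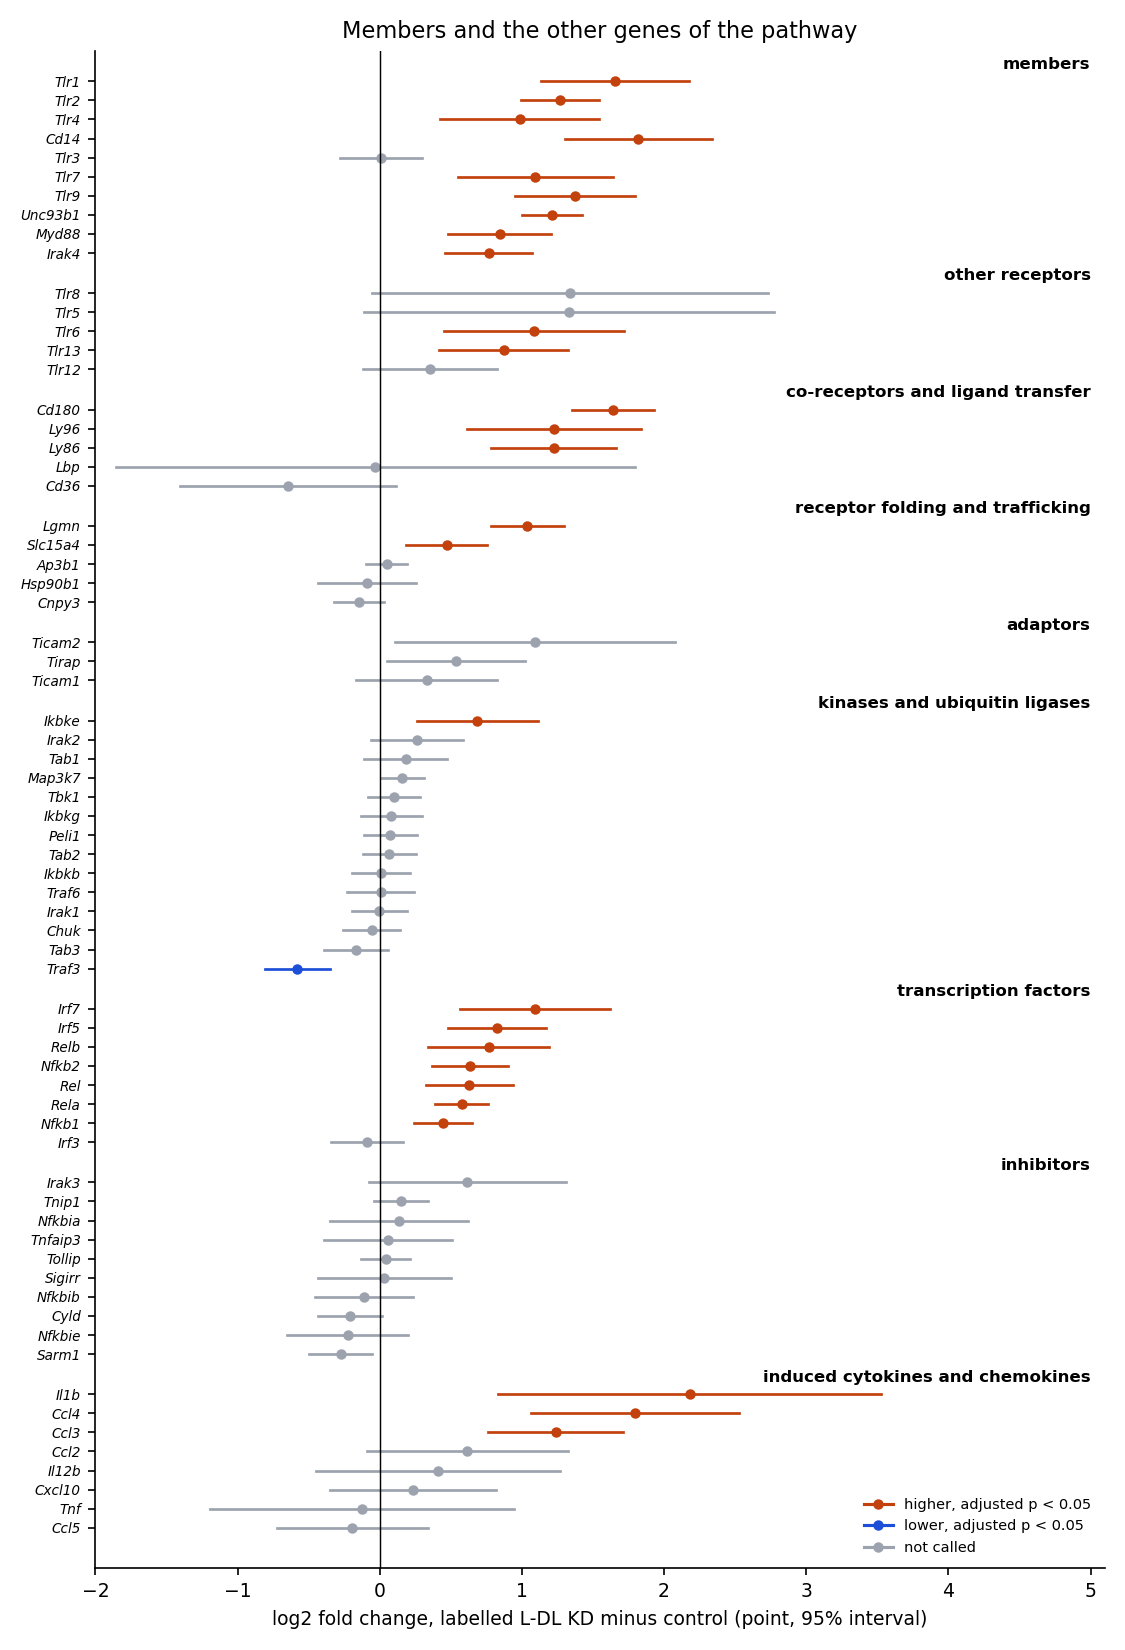
Log2 fold change (KD-labelled libraries minus control) with its 95% interval from edgeR for the 10 genes, at the top, and for the 58 other pathway genes tested, grouped by role. Orange marks genes called higher, blue a gene called lower and grey genes not called, so that the called genes sit mostly among the receptors, co-receptors and transcription factors.

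In bulk tissue, fewer or more cells of a type and less or more RNA per cell cannot be told apart. Markers of microglia moved with the 9 genes. All 15 microglial markers were called higher. Their summed level was 1511 to 1867 CPM in the controls and 3265 to 4199 CPM in the KD-labelled libraries, a fold of 2.16. Single markers had unlike fitted folds, from 1.48 for *P2ry12* to 5.93 for *Fcrls*. Those of *C1qa*, *C1qb* and *C1qc*, the most abundant markers in the controls, were 1.89 to 1.99. Of other cells that carry these receptors, 2 of 6 tested border macrophage markers were called higher (summed level 25.4 to 39.9 against 37.2 to 98.9 CPM). Of 6 tested monocyte and neutrophil markers 1 was called higher (summed level 64.1 to 80.0 against 115 to 160 CPM). This was *Csf3r*, a cytokine receptor gene, whose mean of 39.8 CPM in the controls and 94.8 CPM in the KD-labelled libraries made up most of the summed level. The neutrophil genes *Ly6g*, *S100a9* and *Ngp* had 0 to 2, 5 to 30 and 1 to 30 counts per library. Dendritic cell markers had 1 of 6 called lower (24.4 to 37.2 against 24.9 to 30.2 CPM), and none of 8 B and plasma cell markers was called by edgeR or DESeq2 or had an unadjusted p under 0.05, with a summed level of 185 to 1489 against 806 to 2240 CPM. Of 7 T cell markers 2 were called lower (43.9 to 68.3 against 26.6 to 43.1 CPM). Endothelial markers had 4 of 7 called higher (259 to 283 against 333 to 391 CPM). Astrocyte markers had 2 of 8 higher and 2 lower (7212 to 7328 against 5780 to 6839 CPM), and oligodendrocyte markers 2 of 7 higher (7601 to 8114 against 6582 to 9601 CPM). The part of these cells in the rise of the 9 genes was not tested.

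Each gene was therefore also set against the summed level of the 15 microglial markers in the same library. On this scale, of CPM per 1000 CPM of markers, 6 of the 10 genes had groups that did not overlap, 3 above and 3 below. Over all genes tested, 1.19% lay above and 81.5% below in the same way, so that a fall on this scale was common. *Cd14* went from 2.77, 3.59 and 3.52 in the controls to 4.77, 4.81 and 6.33 in the KD-labelled libraries, which was 1.61-fold higher. *Tlr1* went from 4.67, 2.42 and 3.57 to 5.64, 5.22 and 4.73, which was 1.46-fold higher with a narrow gap between the groups. *Tlr2* went from 11.97, 12.01 and 11.7 to 14.5, 12.4 and 13.2, which was 1.12-fold higher. Single markers had unlike folds, so these ratios do not set the 3 genes apart from every microglial marker.

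*Tlr3* went the other way, from 15.1, 15.3 and 20.7 to 7.48, 8.27 and 7.61 per 1000 CPM of markers, or 0.458 of the control mean. *Myd88* (0.837 of the control mean) and *Irak4* (0.781) were also lower in each KD-labelled library than in each control. *Tlr4* (0.919), *Tlr7* (0.98), *Tlr9* (1.21) and *Unc93b1* (1.07) overlapped between the groups. The two-sided exact permutation p was 0.1 for each of the 6 genes that did not overlap, the smallest that 3 against 3 can give, and 0.167 after adjustment over the 10 genes, so none passed 0.05. The result for *Tlr1* and *Tlr2* depended on the markers. Without *C1qa*, *C1qb* and *C1qc*, or with a geometric mean of the markers, *Cd14* alone lay above, and 4 genes lay apart. These last settings were chosen after the values were seen.

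**Figure D3:**
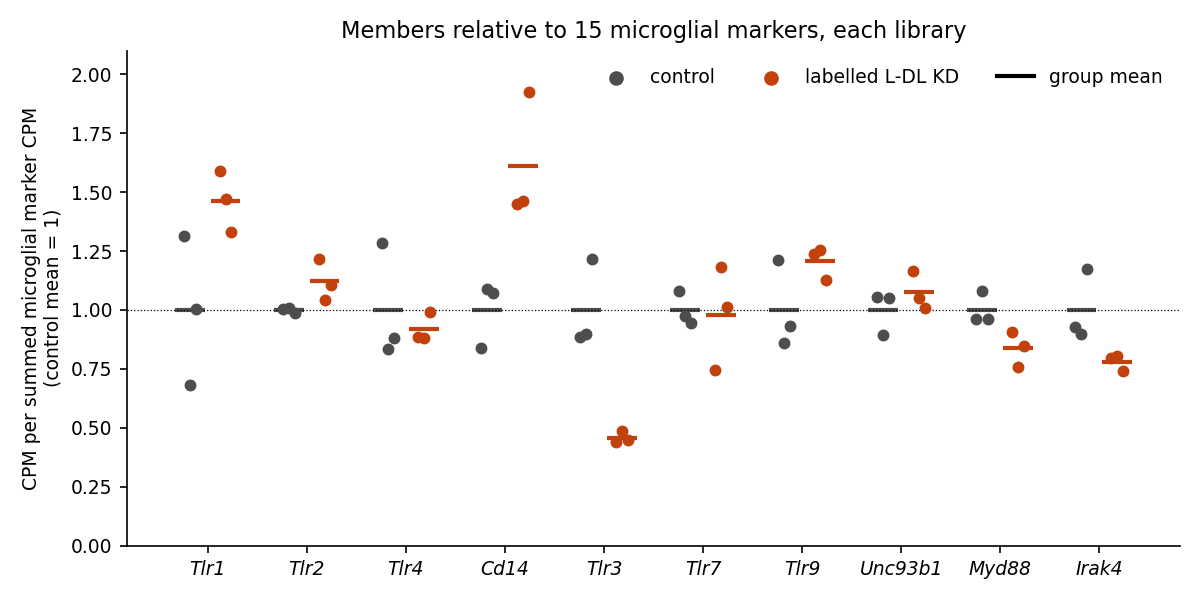
CPM of each gene divided by the summed CPM of 15 microglial markers in the same library, with the control mean set to 1. Points are libraries and bars group means, and *Cd14* lies above the controls at 1.61 while *Tlr3* lies below them at 0.458.

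Splicing of these genes was read from junction counts, as PSI, the share of the form that includes the segment after division by the effective length of each form. Of the 10 genes, 6, namely *Tlr2*, *Tlr4*, *Tlr9*, *Cd14*, *Myd88* and *Irak4*, had no listed event. Of the 11 events in *Tlr1*, *Tlr3*, *Tlr7* and *Unc93b1*, 7 lay in exons that are coding in at least 1 annotated transcript, and 4 had enough reads to test. None of the 4 was called by edgeR's quasi-likelihood test on junction counts, and none had an unadjusted p under 0.05. Over all 18829 events tested, 48 were called (0.255%), and limma called none of all these events. The edgeR count ranged from 0 to 52 with 1 library left out, being lowest without the third listed control. The table gives no replicate numbers, so its libraries are given below in the order in which they are listed.

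The best covered event was exon 4 of *Unc93b1* (transcript Unc93b1-203, chr19:3941520-3941681, plus strand), a coding exon of 162 nt. Its sequence, shown as that of the best covered event in the 10 genes, was taken from the GENCODE transcript (GRCm38).
Unc93b1, exon 4: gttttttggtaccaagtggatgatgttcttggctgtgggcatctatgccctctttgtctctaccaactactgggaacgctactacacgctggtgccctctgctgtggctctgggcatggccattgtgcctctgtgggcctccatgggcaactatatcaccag
The exon was included by 310, 296 and 273 reads and skipped by 3, 8 and 6 in the controls, and included by 682, 859 and 756 and skipped by 22, 10 and 0 in the KD-labelled libraries. Inclusion reads thus rose with the gene, and PSI was 0.963 ± 0.017 in the controls and 0.972 ± 0.031 in the KD-labelled libraries (SD, n = 3 each). The log2 change of inclusion over skipping was 0.52 (SE 0.91, 95% interval -1.46 to 2.50, adjusted p = 0.879, edgeR). Skipping of the other 2 listed *Unc93b1* exons, of 94 and 274 nt, was seen in 1 read each over the 6 libraries. In the controls 0 of 619 and 0 of 794 reads skipped them, which allows shares of up to 0.485% and 0.378% (counting error only).

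In *Tlr7* 2 coding exons of transcript Tlr7-202, of 68 nt (chrX:167308789-167308856) and 81 nt (chrX:167309281-167309361), were each listed against 2 sets of neighbouring exons, and 1 listing of each had enough reads to test. In the tested listing, PSI of the 68 nt exon was 0.213, 0.187 and 0.111 in the controls and 0, 0.261 and 0.420 in the KD-labelled libraries, over 12 to 32 and 16 to 68 reads. The first of the latter libraries had 0 inclusion reads and 16 skipping reads, and the groups overlapped, with a log2 change of 0.50 (SE 1.07, 95% interval -1.84 to 2.84, adjusted p = 0.906, edgeR). In its tested listing, PSI of the 81 nt exon was 0.054, 0.126 and 0.056 in the controls and 0.245, 0.028 and 0.134 in the KD-labelled libraries. Its log2 change was 0.64 (SE 1.07, 95% interval -1.67 to 2.96, adjusted p = 0.87, edgeR). Both intervals include changes of more than 1 log2 unit in either direction, as does that of the *Unc93b1* exon, so these tests do not show that inclusion was alike in the groups.

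In *Tlr3* a pair of mutually exclusive exons, noncoding exon 3 of Tlr3-201 (chr8:45408666-45408735) and a segment at chr8:45409796-45409990, was tested. On the minus strand rMATS takes the form with the second of these as inclusion. Its PSI was 0.039, 0.084 and 0.196 in the controls and 0.062, 0.064 and 0.095 in the KD-labelled libraries. The groups overlapped, with a log2 change of -0.60 (SE 0.98, 95% interval -2.72 to 1.52, adjusted p = 0.866, edgeR). As a skipped exon, the same exon 3 had 1 skipping read of 133 in the controls and 4 of 179 in the KD-labelled libraries.

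**Figure D4:**
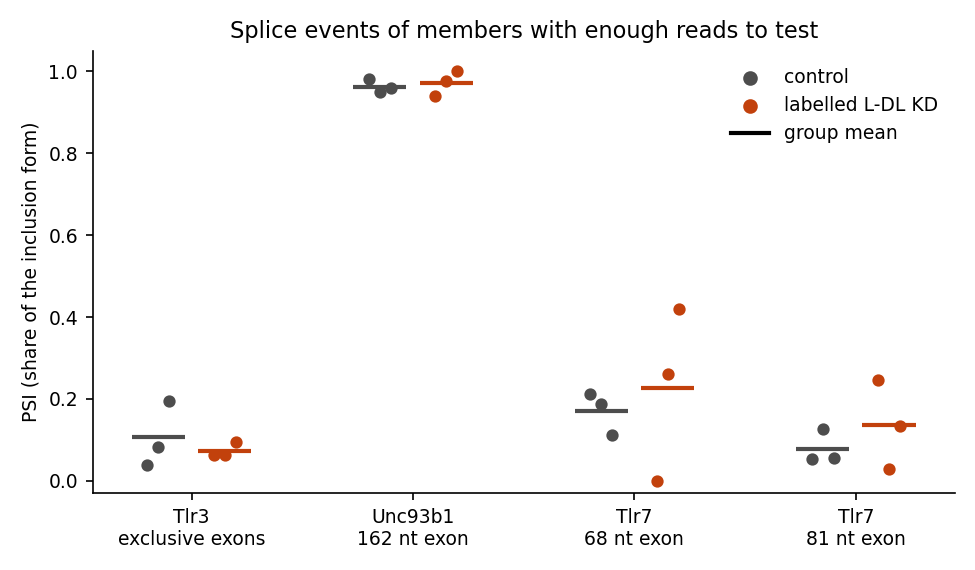
PSI of the 4 tested splice events in each library. Points are libraries, bars are group means, and the groups overlap in each event, with *Unc93b1* exon 4 between 0.939 and 1.0 in all 6 libraries.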

How the data were processed

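The authors sequenced oligo(dT)-selected hippocampal mRNA in 6 libraries, 3 control and 3 labelled L-DL KD. The authors deposited raw counts per Ensembl gene, aligned to GRCm38. The submitters' processing notes name HISAT2 (2.1.0), HTSeq (0.6.1) and Bowtie (1.1.2). The authors also deposited rMATS output with junction reads per library. Its first sample is the L-DL KD group by the paper's definition of the PSI change. Its p-values, FDR and PSI columns are the authors' own comparison and were not used.

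Gene counts, scaled by TMM, entered edgeR's quasi-likelihood test (4.0.16, R 4.3.3) where 3 or more libraries held at least 10 reads. Junction reads were tested with edgeR on both forms of each event, for events with a mean of at least 20 reads per library and of at least 1 read of each form. Both fits were checked on simulated data. Symbols and exon lengths came from GENCODE for 52403 of the 52550 genes. CPM relative to microglial markers was compared by exact permutation tests, which were two-sided. Alternatives were DESeq2 (1.42.0), a replicate block, scaling by library size, weaker and stricter filters, limma (3.58.1) with a pseudocount of 0.5, other marker sets and leaving out each library. No depth beyond the counts is known, and intervals on reads cover counting error only.

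All 10 genes and all other Toll-like receptors were named, with up to 3 called genes in each direction for each other pathway role, and the events tested. The genes and lists were chosen with earlier results of these data known. The motifs were chosen, and that of the ISRE shortened, after matches had been seen. Pathway genes named as not called, other than receptors, were picked after their values were seen.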

Additional observations from a re-analysis of the deposited data

How the results depend on the processing

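The count of called members was 9 under DESeq2, scaling by library size, both other filters and the replicate block, and 8 to 9 with a library left out, where only *Tlr4* was lost. The count over all genes, 5379, was 3498 to 6477 with a library left out. It was 3524, 3541 and 3498 without control replicate 1, 2 and 3, and 6477, 4188 and 4369 without L-DL KD replicate 1, 2 and 3. All of these fits leave fewer samples, and the cause of the differences was not tested. The pathway count, 19, was 14 to 22. The log2 fold change of *Tlr3* turned to -0.000696 with the replicate block and ran from -0.0559 to 0.126 over all settings. With a library left out it was negative without control replicate 1 (-0.0284) or 2 (-0.0121) and without L-DL KD replicate 2 (-0.0415) or 3 (-0.0559). The other 9 genes kept their direction in all 11 settings. Relative to microglial markers, some log2 ratios changed sign. Without *C1qa*, *C1qb* and *C1qc*, that of *Tlr2* turned to -0.0136 and that of *Unc93b1* to -0.0775. Without control replicate 1, *Tlr4* turned to 0.0986 and *Tlr7* to 0.0320, and without L-DL KD replicate 1 *Tlr7* turned to 0.136. On this scale 6 to 7 members lay apart with a library left out and 5 without *Tmem119*, *P2ry12* and *Siglech*.

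Same-numbered libraries correlated at 0.0626, 0.157 and -0.14. Of the KD-labelled libraries only replicate 2 correlated best with its own number, so no pairing by number was evident. The replicate block called 4635 genes, 9 members and 19 pathway genes. For splicing, no paired analysis was possible because the junction columns carry no replicate numbers. The count of called splice events, 48, was 0 with limma, 49 with a mean of at least 10 reads, and 0 to 52 with a library left out, where it was 0 to 5 without any 1 control, 3 without the second listed KD-labelled library and 16 without the third. No member event was called in any of these settings, and the causes of these changes were not tested. The *Tlr7* and *Tlr3* events tested had 11 to 68 reads per library.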

Other observations

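The 7 events of these genes that were too thin to test, or nearly without reads of one form, added some values on *Tlr1* and *Tlr7*. Noncoding exon 2 of *Tlr1* (Tlr1-201, 69 nt) was included by 6, 2 and 6 reads and skipped by none in the controls. In the KD-labelled libraries it was included by 19, 26 and 21 reads and skipped by 1, 4 and 1, which is 8.33% of 72 reads. The 0 of 14 reads in the controls allows a share of up to 21.4% (counting error only), so that a difference was not detectable at this depth. The 300 nt exon 2 of Tlr1-202 was skipped by 0 of 6 reads in the controls and by 1 of 26 in the KD-labelled libraries. The *Tlr7* exons of 68 and 81 nt were also listed against other neighbouring exons, with 2 to 21 reads per library. There PSI of the 68 nt exon was 0.734, 0.756 and 0.580 in the controls and 0, 0.838 and 0.746 in the KD-labelled libraries, and PSI of the 81 nt exon was 0.245, 1.0 and 0.394 in the controls and 1.0, 0.218 and 0.266 in the KD-labelled libraries. The groups overlapped in both, and these values were mostly higher than in the tested listings of the same exons.

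*Lbp*, which encodes the serum protein that brings lipopolysaccharide to CD14, differed more between libraries than between groups. It had 331, 145 and 645 counts in the controls and 936, 190 and 100 counts in the KD-labelled libraries, with a log2 fold change of -0.03 (SE 0.79, adjusted p = 0.981, edgeR). It was chosen after its values were seen.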
